A study of Gallus gallus with 14 samples.

Results

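The nuclear genes of the mitochondrial respiratory chain were followed in the chick retina, in control eyes and after wear of a negative lens. Genes were taken by symbol: NDUF genes, SDHA to SDHD, and genes whose symbols start with UQCR, COX4 to COX8 or ATP5, together with CYCS. This gave 83 of the 18631 genes listed. CYC1, the cytochrome c1 subunit of complex III, also fits the choice but was not listed under that symbol, so it was not analysed. The 83 genes were grouped by the complex their product belongs to: 7 core subunits, 27 accessory subunits and 9 assembly factors of complex I, 4 subunits of complex II, 8 of complex III, 10 of complex IV, 17 of complex V, and cytochrome c. NDUFA4 was counted with complex IV, where its product is now placed, and ATP5SL, also known as DMAC2, with complex I assembly.

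The respiratory chain sits in the inner mitochondrial membrane. Complexes I and II pass electrons from NADH and succinate to ubiquinone, complex III passes them to cytochrome c, and complex IV passes them to oxygen, while complex V makes ATP from the proton gradient that complexes I, III and IV build. Most subunits are encoded in the nucleus and a smaller set in the mitochondrial genome, so the complexes are assembled from the products of both genomes. The retina is known for a high oxygen demand, much of it from the mitochondria packed into the photoreceptor inner segments, and the retina of birds has no vessels of its own.

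All chicks were White Leghorn of wild-type genotype, and the age label reads postnatal day 3. In the lens group a -10 D lens was fitted over the eye at the age of 3 days and worn for 6 days. The 7 control retinas are numbered 57, 58, 59, 62, 63, 64 and 65, and the 7 lens retinas 46, 47, 48, 51, 53, 54 and 55. The protocol gives day 3 as the age at lens fitting, and the age of the control chicks at collection is not stated. The comparison asks which transcripts differ in the retina while the lens drives the eye towards myopia. The labels do not say that the retinas came from separate animals, so p-values measure the spread between these samples, which may be technical.

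Depth was 32.3 to 42.6 M reads per library, of which 10.8 to 14.1 M fell in listed genes. Markers of retinal cell types were present in all retinas, with summed levels of 435 to 674 CPM (reads of a gene scaled to the total of its library) in control and 402 to 535 CPM in lens retinas for 4 rod genes, and of 1300 to 1670 CPM and 1230 to 1740 CPM for 5 cone genes. Markers of the 4 inner retinal neuron types and of Müller glia were also detected. Of 7 pigment epithelium genes, 2 reached a mean of 1 CPM, and their sum was 3.92 to 8.94 CPM over all retinas. Of 3 muscle genes listed, none reached 1 CPM. Of 3 vessel genes, 1 reached a mean of 1 CPM, and their sum was 15.3 to 22.9 CPM in control and 12.3 to 22.3 CPM in lens retinas. Markers of oligodendrocytes summed to 110 to 221 CPM and those of microglia to 2.76 to 5.22 CPM. The part of cell composition in any difference below was not tested, and in whole retina fewer cells of a type and less RNA per cell cannot be told apart. Control 65, lens 48 and lens 55 stood apart from the other 11 retinas in that transcripts of the W chromosome summed to 2.20, 2.82 and 4.56 CPM there and to 616 to 721 CPM in the others. Several results that rest on these 3 retinas are given with and without them, but not every count and median below.

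No respiratory chain gene differed between lens and control retinas past the threshold, an adjusted p of 0.05 over all genes tested. Of the 83 genes, 76 passed the expression filter (at least 1 CPM in at least 7 of 14 retinas) and were tested. With limma, 0 of 76 were higher and 0 of 76 lower in lens retinas, against 307 of 11132 genes tested (2.76%), of which 102 (0.916%) were higher and 205 (1.84%) lower. At an unadjusted p under 0.05 there were 3 of 76, namely NDUFB2, COX7B and NDUFS1, against 1796 of all tested genes (16.1%). An exact permutation test for each gene had 3 of 76 at an unadjusted p under 0.05. For this test that share was not worked out over all tested genes. After adjustment the permutation test called 0 of 76 and 170 of all tested genes, the number whose groups did not overlap. Its 0 therefore restates the count of non-overlap that follows and is not separate support. For 0 of 76 genes did the 7 lens values lie wholly outside the 7 control values, against 170 of all tested genes (1.53%). The direction of calls over all genes depends on scaling: 33.2% of calls were higher in lens retinas as deposited, and 59.1% with TMM factors, 59.5% with median-of-ratios factors, 56.3% with quantile normalization and 53.3% with an equal sum over listed genes.

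The intervals say how large a difference could have gone unseen. Fold changes here are lens minus control, in log2(CPM + 1), and are given with the standard error (SE). The added 1 makes the change of a gene of few reads look smaller. The median over the 76 genes was 0.02, against -0.04 over all tested genes, with 41 genes above 0 and 35 below. Over all tested genes 3891 of 11132 were above 0. Signs depend on scaling: with TMM factors the medians were 0.06 and 0.0001, with 50 of the 76 genes above 0. Without the 3 retinas that lack W-linked transcripts the median over the 76 genes was -0.03, with 25 above 0, and again 0 of 76 were called. Over all genes tested without these 3 retinas the median was -0.04, and 260 of 10969 were called. On this scale the 95% interval lay within 1.5-fold in either direction for 73 of 76 genes (96.1%), against 97.0% of all tested genes. For 46 of 76 it lay within 1.2-fold, against 6318 of 11132 tested genes. These counts hold for an added 1: with 0.1 added in its place, the SE of NDUFAF2 was 0.206 against 0.159. The 3 genes with intervals beyond 1.5-fold on this scale were ATP5A1W (-2.25 to 1.19), ATP5A1Z (-0.15 to 0.64) and NDUFS6 (-0.07 to 0.60). The first 2 are sex-linked, and their estimates of -0.53 and 0.24 became 0.07 and 0.13 without the 3 retinas that lack W-linked transcripts. Of the 83 genes, 5 overlap another gene on the same strand, and none of these 5 was in whole reads throughout; 17 overlap a gene on the opposite strand only, and all 17 were. The summed level of all 83 genes was 1065 ± 49.2 CPM in control (SD, n = 7) and 1079 ± 52.2 CPM with the lens (SD, n = 7). Over the 77 autosomal genes it was 984 ± 53.5 CPM in control and 989 ± 39.4 CPM with the lens (SD, n = 7 each).

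**Figure D1:**
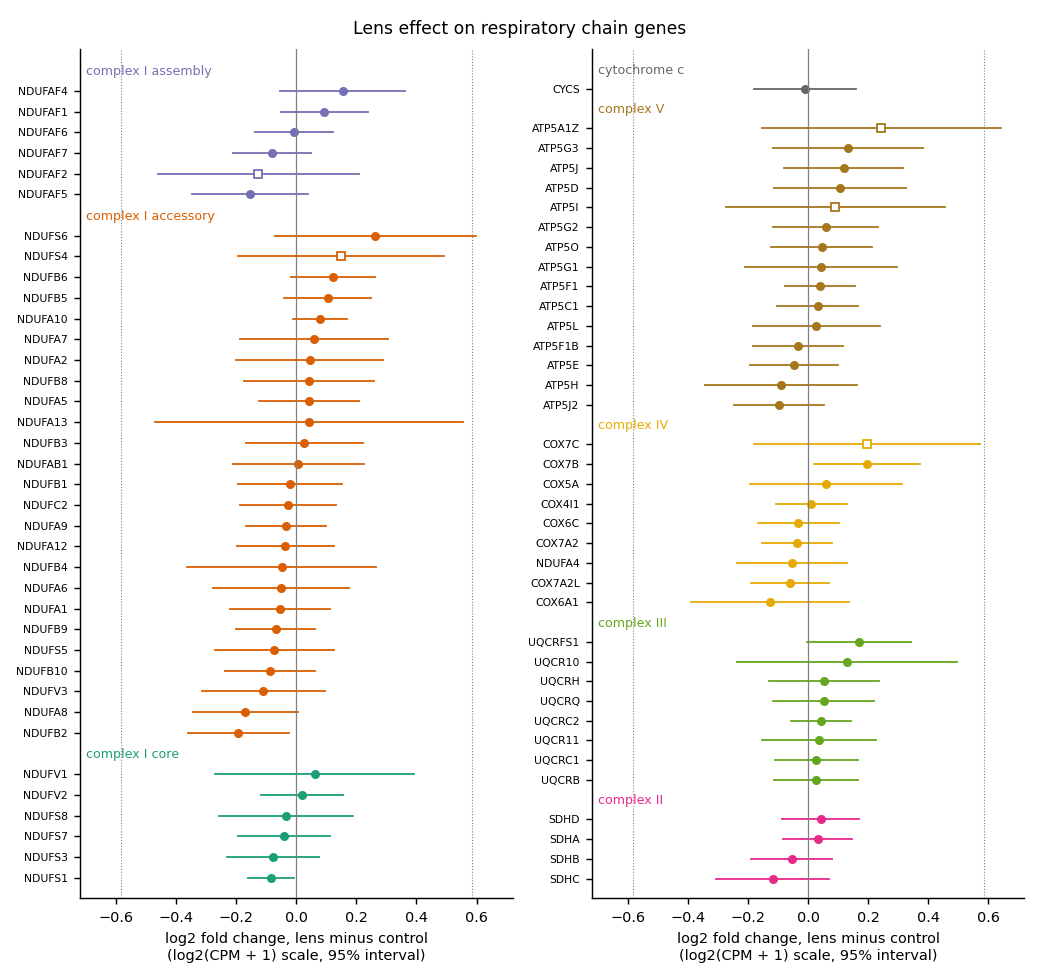
Log2 fold change (lens minus control, log2(CPM + 1) scale) of tested genes, by complex; points are estimates, lines are 95% intervals, open squares are genes on chromosome Z and dotted lines mark 1.5-fold. ATP5A1W, whose interval runs from -2.25 to 1.19, is left out to keep the scale; the intervals of NDUFB2, NDUFS1 and COX7B alone do not cross 0.

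In complex I, the entry point for electrons from NADH, the 7 core subunits had a median fold change of -0.04, with 2 above 0 and 5 below. NDUFS1 (chromosome 7, 12576554 to 12591771), the large iron-sulfur subunit of the NADH-oxidizing arm, had 39.1, 41.7 and 43.3 CPM as lowest, median and highest control values and 36.9, 39.3 and 41.2 CPM in lens retinas. The groups overlapped. Its fold change was -0.09 ± 0.037 (SE), with a limma adjusted p of 0.259, and -0.04 with TMM factors. NDUFS1 was also the steadiest of the autosomal genes, with a within-group SD of 0.05 on the log2 scale. NDUFS1 overlaps INO80D on the same strand over 1461 bases. Its values were not whole numbers of reads in any library, so reads may have been divided between NDUFS1 and INO80D. INO80D had 41.9 CPM in control and 40.0 CPM with the lens.

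NDUFV1, which binds the flavin that accepts electrons from NADH, spread far more widely. It ran from 2.99 to 7.49 CPM in control and from 3.99 to 8.24 CPM with the lens, with medians of 5.75 and 5.06 CPM. Its fold change was 0.06 ± 0.157 (SE), with a limma adjusted p of 0.897. NDUFV2, NDUFS3, NDUFS7 and NDUFS8, other core subunits, several of which carry iron-sulfur clusters, had fold changes from -0.08 to 0.02. The core subunits summed to 78.3 ± 2.21 CPM in control and 75.6 ± 4.37 CPM with the lens (SD, n = 7 each).

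Of the 27 accessory subunits of complex I, which surround the core and are needed for its assembly and stability, 25 were tested, 12 above 0 and 13 below, with a median of -0.02. NDUFB2 (chromosome 1, 56918193 to 56928942), a subunit of the membrane arm, had the smallest p of all 76 genes. Its lowest, median and highest values were 3.60, 4.83 and 5.34 CPM in control and 3.44, 4.04 and 4.37 CPM in lens retinas. The lens values lay low against the control values and overlapped them, with the lowest lens value below all controls. The fold change was -0.19 ± 0.080 (SE), with a limma adjusted p of 0.232. NDUFB2 overlaps BRAF over 9331 bases on the opposite strand; BRAF had 98.3 CPM in control and 90.9 CPM with the lens. The strand setting of the counting is not given, so reads of such a pair cannot be told apart with certainty, although NDUFB2 was in whole reads in all 14 libraries.

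NDUFA8, another membrane-arm subunit, had 7.85 ± 1.12 CPM in control and 6.83 ± 0.627 CPM with the lens (SD, n = 7 each), a fold change of -0.17 with a limma adjusted p of 0.319. NDUFA10, a subunit of the membrane arm related to nucleoside kinases, had 49.1 ± 2.18 and 51.9 ± 2.90 CPM, a fold change of 0.08 with an adjusted p of 0.38. In both genes the groups overlapped. NDUFS6, a zinc-binding subunit of the peripheral arm, had the highest estimate, 0.26 ± 0.159 (SE), from 3.81 to 9.01 CPM in control and 4.33 to 8.22 CPM with the lens, and a limma adjusted p of 0.445.

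The 6 tested assembly factors of complex I, which help to build the complex and are not part of it, had a median of -0.04. NDUFAF4 and NDUFAF1, which take part in building the complex, had fold changes of 0.15 and 0.09. NDUFAF5, which modifies NDUFS7, had 4.91 ± 0.816 CPM in control and 4.30 ± 0.563 CPM with the lens, a fold change of -0.15 with a limma adjusted p of 0.437. NDUFAF7, a methyltransferase, stood at -0.08 and NDUFAF6 at -0.01.

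Complex II, which links the Krebs cycle to the chain and has no subunit encoded in mitochondria, had the smallest median half-width of the 95% interval among the complexes, 0.132. SDHA (chromosome 2, 85662886 to 85678802), the flavoprotein that oxidizes succinate, had 59.3, 65.4 and 71.9 CPM as lowest, median and highest control values and 58.7, 66.7 and 74.0 CPM in lens retinas. The lens range enclosed the control range. SDHB, the iron-sulfur subunit, had a fold change of -0.06 ± 0.064 (SE). The membrane anchors SDHC and SDHD stood at -0.12 and 0.04, and the smallest limma adjusted p of the 4 was 0.562. Their intervals ran from -0.31 at the lowest bound to 0.17 at the highest.

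In complex III, which passes electrons from ubiquinol to cytochrome c, the estimates of 8 of 8 genes were above 0. Over all tested genes 3891 of 11132 were above 0. The 8 estimates ran from 0.03 to 0.17, with a median of 0.05 and none past the threshold. UQCRFS1 (chromosome 11, 8114724 to 8118078), the Rieske iron-sulfur protein, had 5.91, 7.82 and 8.36 CPM as lowest, median and highest control values and 7.44, 7.80 and 9.41 CPM in lens retinas. Its medians were nearly the same, while the control values reached lower and the lens values reached higher. The fold change was 0.17 ± 0.083 (SE), with a limma adjusted p of 0.325. UQCR10, a small subunit near cytochrome c1, spread from 6.93 to 15.9 CPM in control alone and had a fold change of 0.13 with an adjusted p of 0.779. Its fold change ran from -0.02 to 0.23 over the settings run. UQCRC1 and UQCRC2, the large core proteins, stood at 0.03 and 0.04, and UQCRB, which binds near the quinone site, at 0.03. The common sign rests in part on 1 retina: without control 65 it held for 6 of 8 genes, and without the 3 retinas that lack W-linked transcripts for 3 of 8.

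In complex IV, cytochrome c oxidase, 9 of 10 genes were tested, 4 above 0 and 5 below, with a median of -0.03. COX7B (chromosome 4, 12902246 to 12904722), a small membrane subunit, had 19.8, 25.6 and 29.7 CPM as lowest, median and highest control values and 22.3, 28.8 and 32.8 CPM in lens retinas. The lens values lay higher on the whole and overlapped the control values. The fold change was 0.20 ± 0.084 (SE), with a limma adjusted p of 0.250. COX4I1, the largest nuclear subunit, had 28.1 ± 2.51 CPM in control and 28.2 ± 1.51 CPM with the lens, a fold change of 0.01. NDUFA4, at 41.0 ± 3.74 and 39.8 ± 6.40 CPM, stood at -0.05.

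Isoforms of complex IV subunits that replace each other between tissues could be followed only in part. COX6A1, the form found in most tissues, had 7.60 ± 1.43 CPM in control and 6.91 ± 1.55 CPM with the lens, a fold change of -0.13 with a limma adjusted p of 0.668. COX7A2 had 10.1 ± 0.721 and 9.77 ± 0.481 CPM, and COX7A2L, which takes part in joining complexes into supercomplexes, 12.5 ± 0.533 and 12.0 ± 1.22 CPM. Their fold changes were -0.04 and -0.06. COX5A stood at 0.06, but it shares 1462 bases with FAM219B on the same strand and its values were not whole reads in any library.

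In complex V, ATP synthase, 16 of 17 genes were tested, 11 above 0 and 5 below, with a median of 0.04. ATP5F1B, the catalytic beta subunit, had 40.3, 46.97 and 55.8 CPM as lowest, median and highest control values and 38.3, 47.2 and 51.1 CPM in lens retinas. The groups covered much the same range, and the fold change was -0.04 ± 0.071 (SE). ATP5J2, a small subunit of the membrane part, had a fold change of -0.10 with an adjusted p of 0.542, and ATP5J, part of the stalk that holds the head still, 0.12 with an adjusted p of 0.587. The genes of the ring-forming c subunit, ATP5G1, ATP5G2 and ATP5G3, which in mammals encode the same mature protein, stood at 0.04, 0.06 and 0.13. ATP5G2 overlaps ATF7 on the same strand and was in whole reads in 1 library. ATP5C1, ATP5D, ATP5E and ATP5O, some of the other stalk subunits, lay between -0.05 and 0.10. ATP5H and ATP5F1 stood at -0.09 and 0.04.

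Cytochrome c, the soluble carrier between complexes III and IV, had 19.0, 22.7 and 26.5 CPM as lowest, median and highest control values of CYCS and 19.2, 22.5 and 26.4 CPM in lens retinas. The ranges nearly coincided. The fold change was -0.01 ± 0.080 (SE), with a limma adjusted p of 0.968.

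The 7 genes below the filter were ATP5S, ATP5SL, COX8A, NDUFA11, NDUFAF3, NDUFAF8 and NDUFB7. Their group means lay between 0.120 CPM (COX8A, lens) and 1.18 CPM (NDUFB7, lens). NDUFA11, a subunit of the membrane arm, lies over 2831 bases within KLHL33 on the same strand, and its values were not whole reads in any library. COX8A, a small subunit of complex IV, was listed at 0 to 0.267 CPM in lens retinas and at 0.0263 to 0.292 CPM in control.

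The spread among retinas of one group was wider than the difference between the group means. For each retina the log2 values of the 70 tested autosomal genes were centred on the gene's mean over 14 retinas and averaged. Controls 57, 58, 59 and 62 had 0.13, 0.04, 0.08 and 0.05, and controls 63, 64 and 65 had -0.08, -0.11 and -0.12. Lens retinas ran from -0.10 in lens 47 to 0.08 in lens 55, with the others between -0.03 and 0.03. The group means were -0.0025 in control and 0.0025 in lens retinas. The lowest value of a gene fell most often in control 65 (16 of 70 genes), control 64 (14) and lens 47 (14), and the highest in control 57 (12), control 62 (10) and lens 55 (9). The same mean over all other tested genes ran from -0.06 to 0.04, though a mean over so many scaled genes has little room to vary. It ran from -0.12 to 0.10 over 65 genes of the cytosolic ribosome and from -0.07 to 0.08 over 67 of the mitochondrial ribosome.

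**Figure D2:**
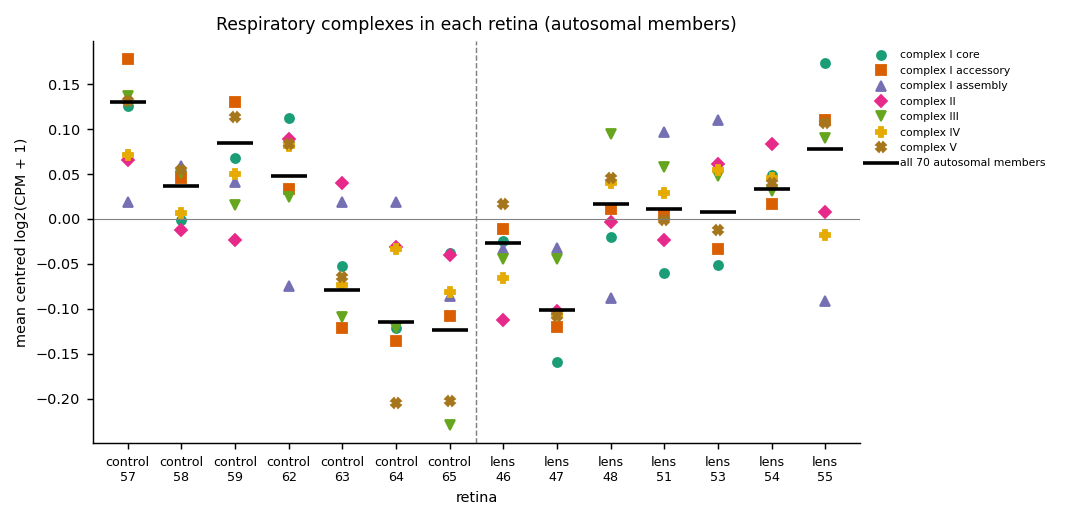
Mean centred log2(CPM + 1) of the autosomal tested genes of each complex in each retina (coloured symbols) and of all 70 (black bars); the dashed line parts control from lens retinas. Controls 57, 58, 59 and 62 lie above 0 and controls 63, 64 and 65 below it, a wider range than that of the lens retinas.

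Complexes varied alike in some of these retinas. In control 57 complexes I to V were all above their means, from 0.07 for complex II to 0.18 for the accessory subunits of complex I. In control 64 complex V stood at -0.20 and the accessory subunits of complex I at -0.14, while complex II was at -0.03 and the assembly factors at 0.02. Control 65 had -0.23 for complex III and -0.20 for complex V. Complex II, complex IV and the assembly factors lay within -0.09 to 0.09 in the controls.

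Ribosomal protein genes varied along in part. In control 64, 67 genes of the mitochondrial ribosome averaged -0.05 and 65 genes of the cytosolic ribosome -0.10. In lens 47 they averaged -0.07 and -0.12, and in control 57 0.05 and 0.09. Lens 47 was also the lowest of the retinas over all other tested genes, at -0.06. Its average over the 70 respiratory chain genes was -0.10, and whether these low values have a common source was not tested. Control 64 and control 57 stood at 0.04 and 0.03 over all other tested genes. Control 59 went the other way for the cytosolic ribosome, at -0.04 against 0.08 for the respiratory chain. RNA quality values are not among the labels, and its part in this spread was not tested.

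The spread was uneven among genes. Over the 70 autosomal genes the within-group SD on the log2 scale had a median of 0.154 and ran from 0.0499 to 0.538, while reads of the mean depth would give 0.0287 to 0.117 from counting alone. In 46 of 70 genes the SD was more than 2 times that from counting, a share not worked out for all tested genes. NDUFA13, an accessory subunit of complex I also known as GRIM-19 and picked here for its spread, was the widest. Its control values were 14.9, 13.0, 13.6, 10.1, 6.44, 4.10 and 6.87 CPM in retinas 57, 58, 59, 62, 63, 64 and 65. Its lens values were 12.2, 7.58, 8.77, 8.47, 6.28, 8.22 and 17.7 CPM in retinas 46, 47, 48, 51, 53, 54 and 55. Controls 57, 58, 59 and 62, with averages above 0 over the 70 genes, of which NDUFA13 is one, were also above the other controls in NDUFA13. The lens retinas followed the same order only in part. Lens 55 was the highest of them in both, at 17.7 CPM and an average of 0.08. Lens 46 had 12.2 CPM with an average of -0.03. UQCR10, NDUFS6, NDUFV1 and NDUFB4 came next among autosomal genes, with SDs of 0.379, 0.341, 0.336 and 0.320. The SD was larger in control than in lens retinas for 38 of the 70 autosomal genes (54.3%), against 52.9% of all tested genes. With the sex-linked genes it was 38 of 76.

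The sex-linked genes were split among retinas by the presence of W-linked transcripts. In birds females carry a Z and a W chromosome and males carry only Z chromosomes; the labels do not give the sex of the chicks. The alpha subunit of ATP synthase is listed on both, as ATP5A1Z (Z, 2151344 to 2159327) and ATP5A1W (W, 1391533 to 1453514). ATP5A1W had 14.9 to 19.6 CPM in the 11 retinas with W-linked transcripts. In control 65, lens 48 and lens 55 it had 0.0309, 0.0532 and 0.0970 CPM, which is 1, 2 and 4 reads.

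ATP5A1Z ran from 57.1 to 63.7 CPM in those 3 retinas and from 27.3 to 36.8 CPM in the other 11, a ratio of medians of 1.95. The ranges did not overlap. The sum of both copies ran from 57.2 to 63.8 CPM in the 3 and from 44.5 to 56.4 CPM in the 11, a ratio of 1.2. Each of the pair was in whole reads in 8 of 14 libraries, so reads may have been divided between the closely related copies.

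The other 4 Z-linked genes behaved like ATP5A1Z. ATP5I, a small subunit of complex V, had 14.9 to 18.4 CPM in the 3 retinas and 7.92 to 11.4 CPM in the 11. COX7C, a small subunit of complex IV, had 13.4 to 17.3 and 7.01 to 9.97 CPM. NDUFS4, an accessory subunit of complex I, had 14.6 to 19.3 and 8.19 to 10.8 CPM, and NDUFAF2, which acts late in complex I assembly, 3.75 to 4.87 and 1.79 to 3.27 CPM. The ratios of medians were 1.90, 1.94, 1.72 and 1.93 in that order.

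All 5 Z-linked genes were thus above every one of the 11 retinas in each of the 3, against 349 of all tested genes (3.14%). Among tested Z-linked genes this held for 334 of 554 (60.3%), with a median ratio of 1.41 and a 5th to 95th percentile of 0.876 to 1.89. Among genes on neither Z nor W it held for 15 of 10548 (0.142%), and among the 70 autosomal respiratory chain genes for 0. NDUFAF4 alone of the 70 lay below, at 5.57, 6.11 and 6.81 CPM in the 3 retinas and 6.87 to 10.03 CPM in the others; of all tested genes 96 (0.862%) lay below, and of those on neither Z nor W 53 (0.502%). These retinas were picked by their W-linked level, so the values are a description with no test.

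**Figure D3:**
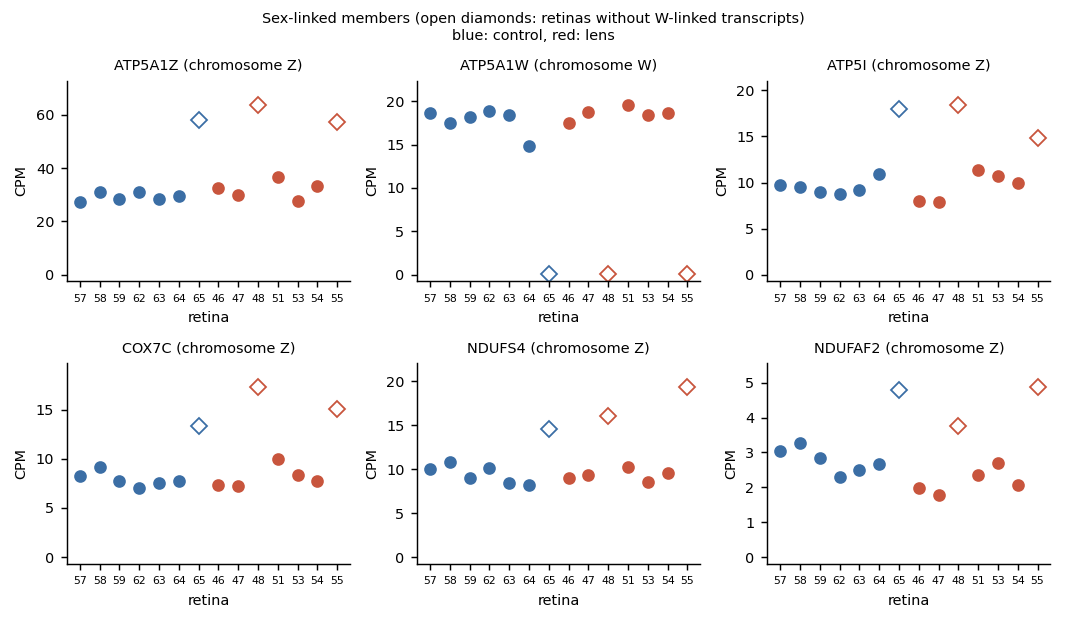
CPM of the 6 sex-linked genes in each retina (blue control, red lens; open diamonds are control 65, lens 48 and lens 55). The open diamonds lie above all other retinas for the 5 Z-linked genes and near 0 for ATP5A1W.

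Since 1 control and 2 lens retinas lacked W-linked transcripts, the lens estimates of these genes carry that imbalance. ATP5A1Z had 33.3 ± 11.03 CPM in control and 40.2 ± 14.3 CPM with the lens, a fold change of 0.24 ± 0.189 (SE) with a limma adjusted p of 0.574. With a covariate for the W-linked level it was 0.12 with an adjusted p of 0.27, and without the 3 retinas 0.13 ± 0.066 (SE) with an adjusted p of 0.389. ATP5A1W had -0.53 ± 0.817 (SE) over all retinas and 0.07 ± 0.065 (SE) without the 3. NDUFAF2 had -0.13 ± 0.159 (SE) and, with the covariate, -0.22 with an adjusted p of 0.203, and without the 3 retinas -0.25 with an adjusted p of 0.220. COX7C, NDUFS4 and ATP5I had 0.20, 0.15 and 0.09 over all retinas and 0.03, -0.01 and 0.0006 without the 3. The smallest adjusted p of any of the 76 genes with the covariate was 0.0989, for NDUFAF4. None of the sex-linked genes passed the threshold in any of these 3 fits.

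The subunits encoded in the mitochondrial genome enter the same complexes, and 4 features of that genome were listed. The long feature EYY68_mgp13, which spans mitochondrial positions 4055 to 16042, had 1103 to 1534 CPM in control and 929 to 1315 CPM with the lens, with 3 of 7 lens values below all control values. Its means were 1343 ± 156 and 1133 ± 154 CPM (SD, n = 7 each), a fold change of -0.25 ± 0.088 (SE) with a limma adjusted p of 0.155. Its fold change was -0.21 with TMM or median-of-ratios factors, -0.22 with an equal sum over listed genes and -0.02 with quantile normalization. On leaving out 1 retina it ran from -0.29 to -0.20, and without the 3 retinas that lack W-linked transcripts it was -0.30. The smallest limma adjusted p in any setting was 0.0792. The rRNA features EYY68_mgr01 and EYY68_mgr02 had limma adjusted p of 0.583 and 0.861, and the libraries were depleted of ribosomal RNA. EYY68_mgp01, on the other strand at 16196 to 16715, had 23.1 ± 5.23 and 24.9 ± 4.54 CPM and an adjusted p of 0.735. Retinas low for the nuclear genes were only in part those low for EYY68_mgp13. Control 63 and lens 47 were low in both, with 1103 and 996 CPM of the long feature, though lens 47 was also low over all other tested genes. By contrast, control 64 had the highest value of the long feature, 1534 CPM, and lens 51, at 929 CPM, had a nuclear average of 0.01.

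**Figure D4:**
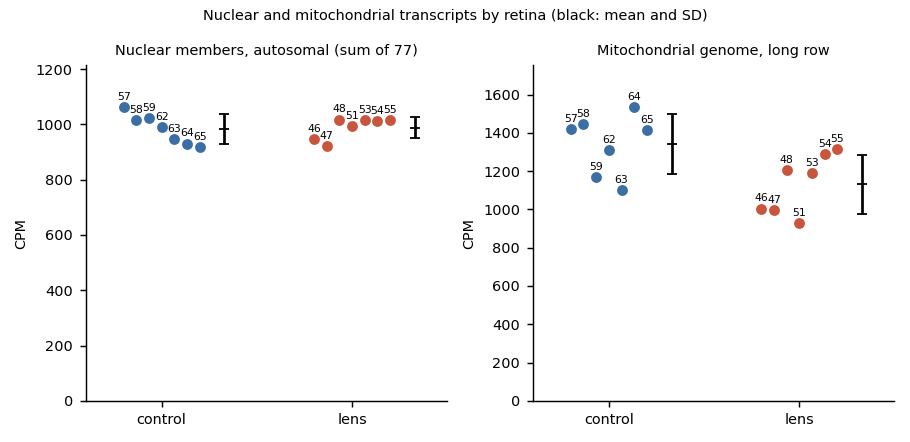
Summed CPM of the 77 autosomal nuclear genes (left) and CPM of EYY68_mgp13 of the mitochondrial genome (right) in each retina, numbered; black marks are mean and SD over 7 retinas. Control 64 is low on the left and highest on the right, and the groups overlap in both.

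Other nuclear genes that serve the chain were counted in the same fit. In 6 lists of 220 names, 200 were listed and 176 tested, of which 0 were higher, 1 was lower and 175 did not pass in limma, against 2.76% of all tested genes called and 1.84% lower. The medians were 0.01 for 30 assembly factors outside the symbols above, -0.02 for 21 Krebs cycle and pyruvate dehydrogenase genes, -0.01 for 15 carriers and porins, -0.03 for 17 regulators of mitochondrial gene expression, -0.02 for 26 import and quality control genes and -0.01 for 67 genes of the mitochondrial ribosome. All 6 lay within 0.04 of 0.

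The 1 gene that fell was HSPA9, the matrix Hsp70 that pulls imported proteins through the inner membrane. Its lowest, median and highest values were 63.4, 68.3 and 73.0 CPM in control and 57.03, 60.7 and 61.97 CPM in lens retinas. All 7 lens values lay below all 7 control values, where 1.53% of all tested genes had groups that did not overlap. The fold change was -0.17 ± 0.040 (SE), with a limma adjusted p of 0.0305. The call did not survive any of the 4 other scalings: the adjusted p was 0.198 after TMM, 0.179 after median-of-ratios scaling, 0.105 after an equal sum over listed genes and 0.0965 after quantile normalization. Without the 3 retinas that lack W-linked transcripts it was 0.0854. It was also lost without any 1 of controls 57, 59, 63 and 64 or lens retinas 48, 51 and 54, with adjusted p of 0.0536 to 0.0686. The fold change in these 7 fits was -0.17 to -0.15, and -0.17 without the 3 retinas that lack W-linked transcripts. With the 4 other scalings it was -0.14 to -0.12. HSPD1, the matrix Hsp60, had -0.15 with an adjusted p of 0.328.

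The next smallest p-values missed the threshold. PDP2, which activates pyruvate dehydrogenase by removing phosphate, had 43.1 ± 4.89 CPM in control and 36.0 ± 2.18 CPM with the lens, a fold change of -0.25 ± 0.066 (SE) with a limma adjusted p of 0.0552. PDK4, the kinase that opposes it, had 0.33 with an adjusted p of 0.262. SLC25A4, an exchanger of ADP and ATP across the inner membrane, had 3.18 ± 0.835 and 1.93 ± 0.647 CPM, a fold change of -0.51 ± 0.148 (SE) with an adjusted p of 0.0763. ESRRB, a nuclear receptor of a family that drives mitochondrial genes, had 3.67 ± 0.941 and 5.23 ± 1.01 CPM, 0.43 ± 0.130 (SE) with an adjusted p of 0.0952. In all 4 genes the groups overlapped.

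COX20 and COX18, which help to build complex IV, had fold changes of 0.18 and 0.17 with limma adjusted p of 0.141 and 0.249. MPC1, a subunit of the pyruvate carrier, had 0.15 with an adjusted p of 0.187, and POLRMT, the mitochondrial RNA polymerase, -0.20 with an adjusted p of 0.318. MRPS6 and MRPS18C, of the small subunit of the mitochondrial ribosome, had -0.21 and -0.18 with adjusted p of 0.181 and 0.363.

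**Figure D5:**
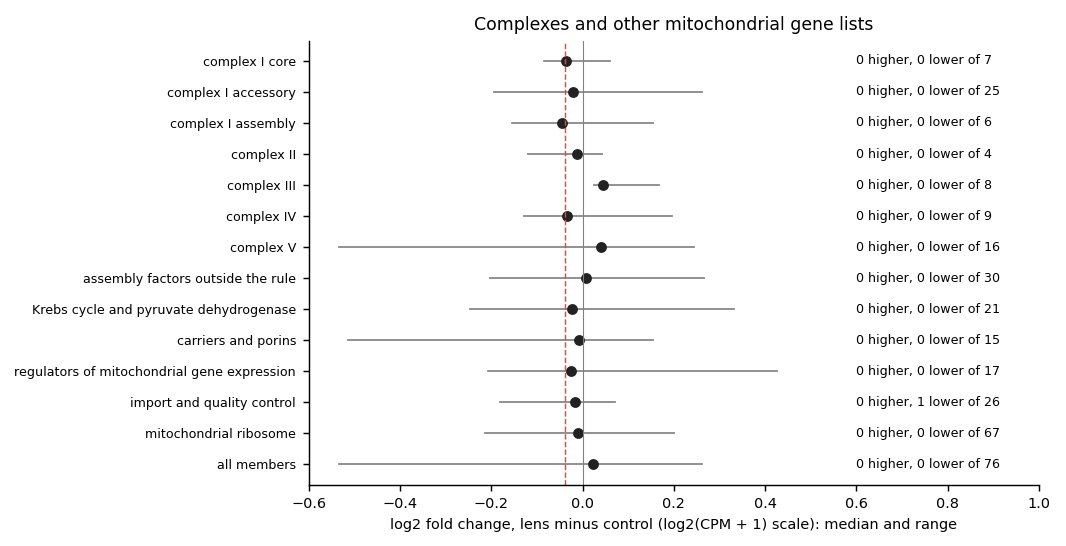
Median (point) and range (line) of log2 fold change, lens minus control on the log2(CPM + 1) scale, for 7 groups of respiratory chain genes, 6 other mitochondrial lists and all 76 tested genes; the red dashed line is the median of all tested genes, -0.04. Medians of the groups lie between -0.04 and 0.05, and the counts on the right give calls at an adjusted p of 0.05.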

How the data were processed

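Total RNA of 14 retinas was sequenced after ribosomal RNA depletion with a stranded kit, per the labels' protocols. The authors deposited 1 table of CPM values for 18631 genes, with 0.0001 added to each value. Reads were handled with STAR and Partek on build GRCg6a, per the submitters' processing notes. How genes were counted, and with which strand setting, is not given in the sources used here. Libraries held 32.3 to 42.6 M reads, read from the step between low values, of which 92.8% to 93.8% were whole reads within 0.02, so no count model was used. Floors and counting spreads cover counting error only.

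The 11132 genes that reached 1 CPM in 7 or more of the 14 retinas were compared on log2(CPM + 1) with limma 3.58.1 (trend; R 4.3.3), with Benjamini-Hochberg adjustment over all tested genes and a threshold of 0.05. The test was checked on simulated data that gave all genes the same spread beyond counting, unlike the genes here. The exact two-sided permutation test used all 3432 assignments, with a smallest p of 0.000583. Alternatives covered pseudocount, filter, scaling, prior, weights, covariates, threshold and leaving out each retina; leaving out the 3 retinas that lack W-linked transcripts was added after seeing the data. Figures used matplotlib 3.10.9 in Python 3.11.15.

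Members and lists were chosen with earlier results of these data known. Genes were named by a rule: in each group the 3 tested genes with the smallest p and the 2 with the highest level, subunits of known central role, isoform groups, sex-linked genes, untested genes, and in the other lists calls and the 2 smallest p. Other genes were named after their values were seen. A gene that entered the counts is not reported here by name. Positions are those of the table; chromosome names come from the RefSeq table of assembly GRCg7b, which matched 81 of 83 genes. Levels were not compared between genes, since transcript lengths were not used here.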

Additional observations from a re-analysis of the deposited data

Results flagged for a closer look

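In 9 of 103 groups of 7 retinas examined, 1 retina stood far from the other 6 by Dixon's test. The groups examined did not cover all 83 genes. Chance marks about 1 group in 20. Of the 9, 6 were the sex-linked genes in control 65, the 1 control without W-linked transcripts: ATP5A1W at 0.0309 CPM, ATP5A1Z at 58.1 CPM, ATP5I at 18.0 CPM, COX7C at 13.4 CPM, NDUFAF2 at 4.79 CPM and NDUFS4 at 14.6 CPM. Among lens retinas, COX7A2 was low in lens 51 at 8.79 CPM, against 9.77 CPM on average. NDUFB7, a complex I subunit below the expression filter, was high in lens 55 at 3.08 CPM, against a lens median of 0.941 CPM. The mitochondrial rRNA feature EYY68_mgr02 was high in lens 46 at 257.1 CPM. Autosomal genes outside the groups examined also had control values that stood apart. NDUFV3 had 20.6 CPM in control 65, against a control median of 13.9 CPM. UQCR11 had 3.00 CPM there, against a median of 4.57 CPM. NDUFB9 had 14.7 CPM in control 57, against a median of 12.5 CPM.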

How the results depend on the processing

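No respiratory chain gene was called under any of the settings run, and the smallest adjusted p in any was 0.0613 (COX7B without lens 55). Of 35 tested genes named by rule, 22 kept the sign of their fold change in each of the 27 to 29 settings in which they were fitted, and 13 changed it in some. The median fold change of the tested genes ran from -0.03 to 0.06 and had the other sign in 6 of 29 settings. It was 0.06 with TMM factors, which moved the median of all genes from -0.04 to 0.0001. The count of all genes called was 307, with 236 to 434 on leaving out 1 retina, 170 with the exact permutation test and 526 at a threshold of 0.1. No paired analysis was possible because the groups share no replicate number. With 7 retinas a group, the median half-width of the 95% interval was 0.174 on the log2 scale, which limits the size of difference that could be seen. Where a small p was missed, equality is not shown.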
